A study of Homo sapiens with 94 samples.

Results

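The genes described here are 5 keratin genes, KRT19, KRT18, KRT8, KRT7 and KRT10, chosen by symbol. They were read from 16 deposited tables of sense RNA, each of which lists 18847 genes, and all 5 had a row in every table. Keratins are intermediate filament proteins that assemble only as pairs of a type I and a type II chain. KRT8 (type II) and KRT18 (type I) form the founding pair of simple, single-layered epithelia. KRT19 (type I) and KRT7 (type II) join that pair in ducts and glands, and KRT19 is a widely used carcinoma marker. KRT10 (type I) is different: it belongs to the differentiated upper layers of the epidermis, so it is a keratin but not one of a simple epithelium. KRT8, KRT18 and KRT7 are on chromosome 12, and KRT19 and KRT10 on chromosome 17. KRT8, KRT18 and KRT19 have processed pseudogenes, and how the authors' counting treated reads shared with these copies is not given in the sources used here.

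The study measured RNA in 2 human T-Rex Flp-in lines, HEK293 (embryonic kidney) and U2OS (osteosarcoma), each with 1 integrated construct under doxycycline control. Every line carried such a construct, also where no doxycycline was given. TET-CD-GFP holds the catalytic domain of TET, whose family converts 5-methylcytosine to 5-hydroxymethylcytosine, and TETMut-CD-GFP is its mutant form (TET-CD and TETmut-CD below). Each RNA group had 3 libraries, 63 of the 94 samples of the series in all. In HEK293 with TET-CD and in HEK293 with TETmut-CD, cells with 1 µg/mL doxycycline for 48 h were compared with untreated cells of the same construct. In a separate HEK293 experiment, cells with uninduced TET-CD received 880 nM 5-aza-2'-deoxycytidine (Aza, an inhibitor of DNA methyltransferases) for 48 h, UVA light (10 kJ/m² at 365 nm every 8 h, 4 times), 25 µM 4-thio-2'-deoxythymidine (thio) for 48 h, or UVA with thio. Those 4 groups share 1 untreated group. U2OS cells with TET-CD received 55 nM Aza or 1 µg/mL doxycycline for 48 h and share 1 untreated group. Finally, 3 HEK293 lines, titled MeBP_TET_WT (the parental line here), MeBP_TKO G16 and MeBP_TKO G37, each received 880 nM Aza or 1 µg/mL doxycycline for 48 h or nothing. MeBP_TKO stands for a triple knockout of methyl-binding proteins. The titles of G16 and G37 name no construct. The titles of the parental line read TET_WT, while its genotype tags give TETMut-CD-GFP. In addition, 1 of its doxycycline libraries carries the MeBP_TKO tag as well, and 1 doxycycline library of G37 lacks that tag. No library could be left out to see what these conflicts change, because only comparisons between groups are tabulated.

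The deposited tables give, for each gene, 1 mean level over an experiment (normalised counts), a log2 fold change shrunken toward 0, and a p-value. Changes below are log2 changes with the shrinkage undone, each with its standard error (SE) and based on 3 libraries against 3. A gene was called where its adjusted p in the authors' deposited table was below 0.05. Depth per library is not given, and the p-values measure only the spread between these libraries, since the labels do not say whether they came from separate cultures. In bulk RNA, more cells with a transcript and more transcript per cell cannot be told apart. The construct responded in every doxycycline comparison: TET1, whose reads do not separate construct from endogenous gene, rose by between 1.97 and 3.52 on the shrunken log2 scale of the authors' deposited table. HEK293 cells had high levels of the mesenchymal filament gene VIM (23947 to 33360 normalised counts) beside the epithelial surface gene EPCAM (2143 to 3885), and low levels of CDH1, which encodes E-cadherin (at most 154). In U2OS the levels were 80342 for VIM, 222 for EPCAM, 260 for CDH1 and 3538 for the collagen gene COL1A1. The basal epidermal keratins KRT5 and KRT14 were at most 0.858 in HEK293 and at most 6.02 in U2OS.

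Both lines transcribed the KRT8 and KRT18 pair, but they differed in which other keratins stood beside it. The mean level of KRT8 was 2382, 2872 and 5521 in the HEK293 construct, treatment and MeBP experiments, and 18425 in U2OS. KRT18 had mean levels of 3290, 3044 and 5030 in those HEK293 experiments and 19274 in U2OS. KRT19 stood at 1757, 1642 and 3451 in HEK293, but at 60.6 in U2OS. KRT7 showed the opposite distribution, with at most 0.768 in HEK293 and 480 in U2OS. KRT10 was between 370 and 529 in HEK293 and at 608 in U2OS. Because each experiment was normalised separately, the ratio of a gene to KRT8 is given as a second view across lines. The KRT8 level also differed between the lines, so such a ratio carries that difference too. Reads per gene depend on transcript length, so the ratios are not ratios of molecules. KRT19 had 0.00329 of the KRT8 level in U2OS, against 0.572 to 0.738 in HEK293. KRT18 stayed between 0.911 and 1.38 of the KRT8 level in all experiments. No test of these ratios was possible, as no spread per library is given. Among 27 keratin genes of the tables, 5 reached a mean level of 100 in HEK293, namely KRT8, KRT18, KRT19, KRT10 and KRT222, while 8 did in U2OS, where KRT7, KRT80, KRT17 and KRT15 were added and KRT19 was not among them.

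The promoter table used here (RefSeq, GRCh38.p14) holds entries for KRT8 and KRT10, 2 of the 5 genes, and the KRT8 entry lies inside the annotated gene rather than at its outer end. The KRT10 window is shown as the one of these entries that does not lie inside its gene. The 250 bases before the annotated start lie at chr17:40822615-40822864 on the minus strand, and the capitals mark the TATA box letters TATAAA.

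KRT10: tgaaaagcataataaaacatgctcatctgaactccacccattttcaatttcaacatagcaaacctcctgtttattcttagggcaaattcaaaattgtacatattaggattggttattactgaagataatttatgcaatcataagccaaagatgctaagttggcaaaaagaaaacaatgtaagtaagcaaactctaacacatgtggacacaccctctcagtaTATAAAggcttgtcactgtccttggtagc

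The motif TATAAA begins 29 bases before the start and occurs 1 time in this window, counting both strands, while 10.7% of all 35116 promoter windows of this length hold it on either strand. The window contains 0 CG dinucleotides, as do 6.06% of all such windows, and the median window holds 11. The KRT8 entry holds 1, and 14.7% of all windows hold at most that many. These are descriptions of the letters, and methylation of the window was not analysed here.

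Over the 16 comparisons KRT19 was called 9 times, KRT18 5 times, KRT8 4 times and KRT10 0 times. Every call was of a higher level in the treated cells. The share of all genes called ran from 0.0275% with TETmut-CD to 24.7% with Aza in G37. The KRT8 calls were all with Aza in HEK293 lines, where 14.3% to 24.7% of all genes were called. So were those of KRT18, except that of UVA with thio against thio. Comparisons that share libraries are not independent. KRT7 was tested in 3 comparisons, as the authors' filter left its adjusted p blank in the other 13, and it was called in 1.

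**Figure D1:**
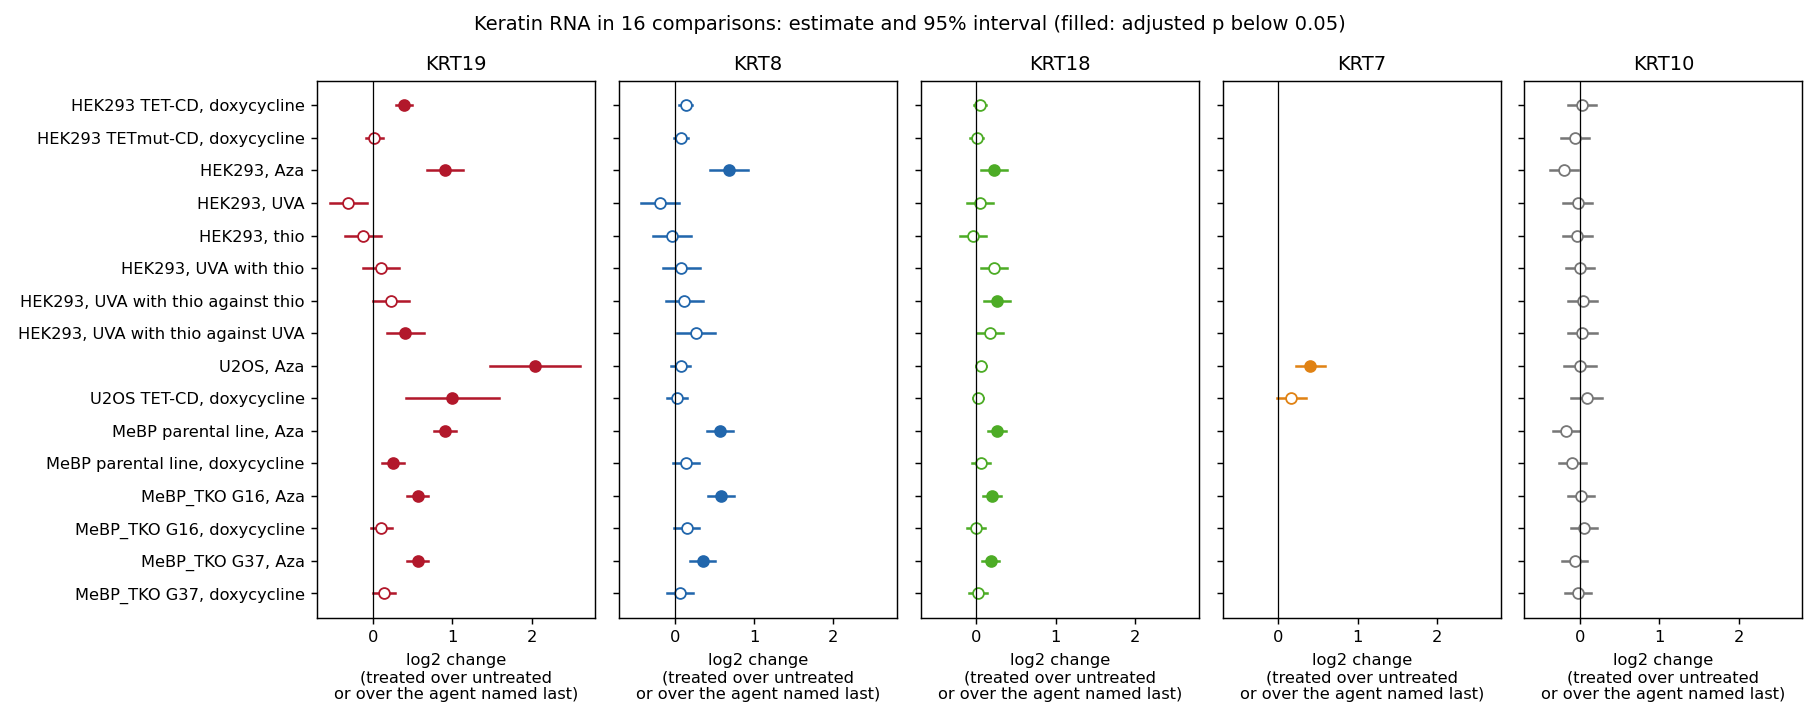
Log2 change of each keratin gene (x axis) in each of 16 comparisons (y axis), with 95% intervals and filled points for adjusted p below 0.05. KRT19 lies right of 0 in doxycycline with TET-CD and in all Aza comparisons but at 0.02 with TETmut-CD, the Aza points of KRT8 and KRT18 are filled in HEK293 and open in U2OS, and KRT7 is drawn only in U2OS, where its mean level is 480.

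With TET-CD induced in HEK293, KRT19 was the 1 member that passed the test, and it was higher. KRT19 was 1.32-fold higher in doxycycline-treated cells than in untreated cells (log2 change 0.40 ± 0.05 SE), with an adjusted p of 1.8e-11 in the authors' deposited table. It ranked at position 7 of 14998 genes by p-value. Among the 88 genes called higher at a mean level of 100 or more it stood at position 35 by size of change. KRT8 had a log2 change of 0.14 ± 0.04 and missed the threshold in the authors' deposited table (adjusted p = 0.063). KRT18 had 0.04 ± 0.04 and KRT10 0.02 ± 0.09, and neither passed. KRT7, with a mean level of 0.768, had no adjusted p. The 1 member called stands against 0.88% of all genes tested in this comparison called in either direction, and 0.653% called higher.

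Induction of TETmut-CD gave no call among the 5 genes, where 0.0275% of all genes were called. The log2 change was 0.02 ± 0.05 for KRT19, 0.08 ± 0.05 for KRT8, 0.00 ± 0.04 for KRT18 and -0.07 ± 0.09 for KRT10. The shrunken value of KRT8 in the authors' deposited table was 0.0025, and undoing the shrinkage without the p-value gave 0.02 in place of 0.08, so this small value is known only roughly. The KRT19 effect was larger with TET-CD than with TETmut-CD by 0.38 ± 0.07 (95% interval 0.23 to 0.52), which passed the test of the difference over all genes (adjusted p = 6.7e-04). Of all genes tested, 0.16% passed that test. On the shrunken scale of the authors' deposited table, TET1 rose by 2.34 with TET-CD and by 1.98 with TETmut-CD. Form of the construct, degree of induction and line therefore cannot be told apart in this contrast. For KRT8 the difference was 0.06 ± 0.06 (interval -0.06 to 0.19), for KRT18 0.04 ± 0.06 and for KRT10 0.09 ± 0.13, and none of these passed.

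Aza at 880 nM raised 3 of the 4 members tested in HEK293, in the order KRT19, KRT8, KRT18 by size, while 14.3% of all genes were called and 7.17% were called higher. The deposited mean level and the fold changes together imply a level per group, if the mean is over the 5 groups of that experiment. On that basis KRT19 stood at 2719 normalised counts with Aza, 1167 with UVA, 1329 with thio, 1553 with UVA and thio, and 1443 in untreated cells. KRT8 stood at 4176 with Aza, 2292 with UVA, 2532 with thio, 2759 with UVA and thio, and 2599 untreated. KRT18 ran closer together, at 3333 with Aza, 2948 with UVA, 2765 with thio, 3321 with UVA and thio, and 2853 untreated. The Aza group stood clear of the other 4 for KRT19 and KRT8, while for KRT18 it was level with UVA and thio. These implied values carry no spread per library and were worked out after the changes had been seen.

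KRT19 was 1.88-fold higher with Aza (0.91 ± 0.11, adjusted p = 9.3e-13 in the authors' deposited table), at position 31 of 16583 genes by p-value. KRT8 was 1.61-fold higher (0.68 ± 0.12, adjusted p = 1.1e-06 in the authors' deposited table). KRT18 was 1.17-fold higher (0.22 ± 0.08), with an adjusted p of 0.048 in the authors' deposited table that became 0.053 when all genes with a p-value entered the adjustment and 0.057 after centring on the median gene. KRT10 had -0.20 ± 0.09 and did not pass (adjusted p = 0.13 in the authors' deposited table).

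The Aza effect was also set against the TET-CD effect, since their untreated libraries are separate. KRT19 changed more with Aza than with TET-CD by 0.52 ± 0.13 (interval 0.27 to 0.76, adjusted p = 0.0027), and KRT8 by 0.54 ± 0.13 (interval 0.29 to 0.79, adjusted p = 0.0019). Of all genes, 5.09% passed this test. KRT18 (0.18 ± 0.09, adjusted p = 0.28) and KRT10 (-0.22 ± 0.13, adjusted p = 0.37) did not pass. Agent and experiment cannot be told apart in this contrast.

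**Figure D2:**
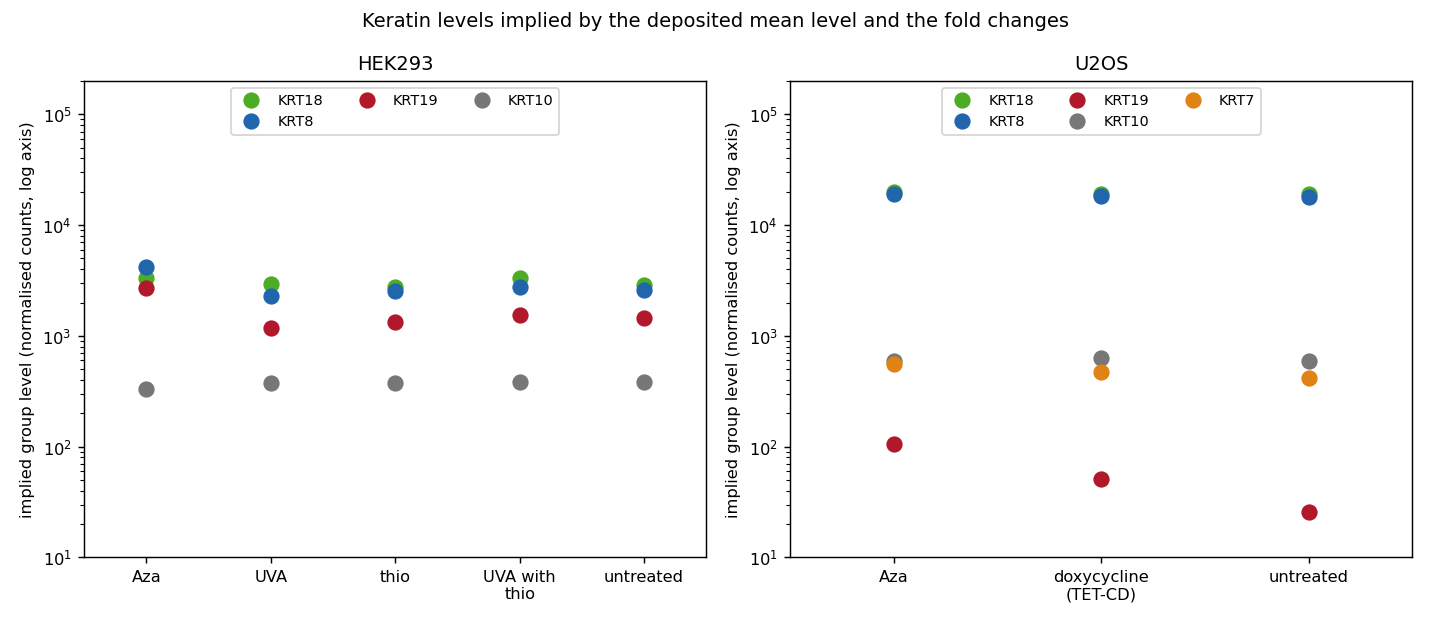
Group levels of each gene on a log axis (normalised counts) as implied by the deposited mean level and the fold changes, in HEK293 (left) and U2OS (right), 3 libraries per group and no spread available. Read within a gene: KRT19 is highest with Aza in both lines, at 2719 in HEK293 and 105 in U2OS, and KRT8 and KRT18 lie nearly level across the U2OS groups.

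The same 3 genes were called higher with Aza in each of the 3 MeBP lines, which form an experiment of their own. In the parental line KRT19 was 1.88-fold higher with Aza than without (0.91 ± 0.07, adjusted p = 2.3e-35 in the authors' deposited table), and it had the lowest p-value of all 16443 genes tested. KRT8 was 1.49-fold (0.57 ± 0.08) and KRT18 1.19-fold higher (0.26 ± 0.06), and both were called. In G16 the changes were 0.57 ± 0.07 for KRT19, 0.59 ± 0.08 for KRT8 and 0.19 ± 0.06 for KRT18. In G37 they were 0.57 ± 0.07 for KRT19, 0.35 ± 0.08 for KRT8 and 0.18 ± 0.06 for KRT18. Of all genes, 22.7% were called in the parental line (10.4% higher), 23.6% in G16 (11.6% higher) and 24.7% in G37 (12.1% higher). KRT10 was not called in any of them, with -0.18 ± 0.08 in the parental line, 0.01 ± 0.08 in G16 and -0.07 ± 0.08 in G37.

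The KRT19 estimate was smaller in both MeBP_TKO lines than in the parental line. The difference was -0.34 ± 0.10 for G16 (interval -0.53 to -0.15) and -0.34 ± 0.10 for G37 (interval -0.53 to -0.15). Each had an unadjusted p of 4.3e-04, but after adjustment over all genes neither passed (adjusted p = 0.25 for G16 and 0.99 for G37). Of all genes, 0.0426% passed for G16 and 0.00609% for G37. Both differences use the same parental libraries, those with the conflicting construct tag, so they are not independent of each other. For KRT8 the difference was 0.02 ± 0.12 for G16 (interval -0.22 to 0.25) and -0.22 ± 0.12 for G37 (interval -0.45 to 0.01), and for KRT18 it was -0.06 ± 0.08 for G16 and -0.08 ± 0.08 for G37. None of these passed.

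With doxycycline in the parental line KRT19 was 1.19-fold higher than in untreated cells (0.25 ± 0.07, adjusted p = 0.028 in the authors' deposited table), the 1 member called where 1.3% of all genes were (1.04% higher). In G16 the KRT19 change was 0.11 ± 0.07, not called in the authors' deposited table (adjusted p = 0.52), with 0.362% of all genes called. In G37 it was 0.14 ± 0.07 (0.262% of all genes called), and this SE was taken from the other lines of the same fit, because the deposited shrinkage left none to recover. The differences from the parental line were -0.15 ± 0.10 for G16 (interval -0.34 to 0.04, adjusted p = 0.52) and -0.11 ± 0.10 for G37 (interval -0.30 to 0.08, adjusted p = 1.000). A call in the parental line without one in G16 and G37 therefore does not show that the lines differed, and 0.97% of all genes passed the test of the difference for G16 and 0% for G37. KRT8, KRT18 and KRT10 were not called with doxycycline in any of the 3 lines, and their estimates lay between -0.10 and 0.15.

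**Figure D3:**
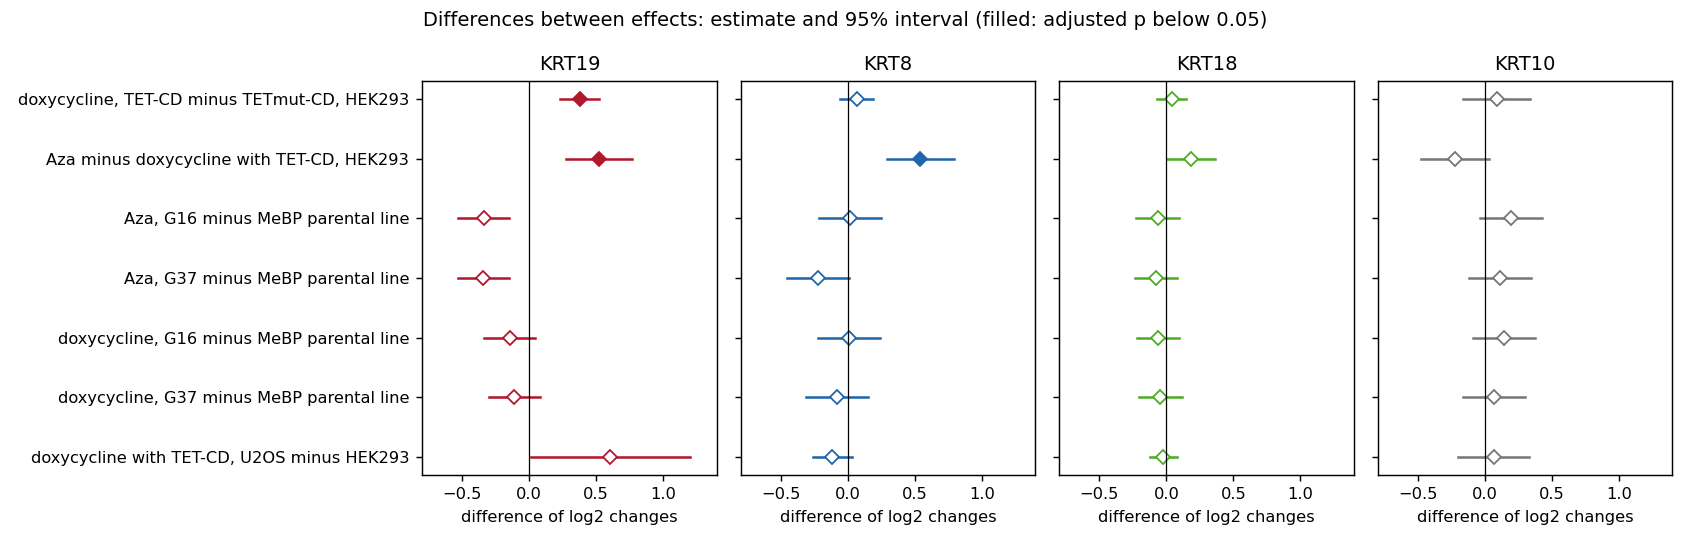
Difference between 2 effects on the log2 scale (x axis) for 4 genes in 7 contrasts with separate untreated libraries (y axis), with 95% intervals and filled points for adjusted p below 0.05. KRT19 passes for TET-CD minus TETmut-CD (0.38) and for Aza minus TET-CD (0.52), KRT8 passes for Aza minus TET-CD (0.54) and in no other of the 7, and the KRT19 intervals for Aza in G16 and G37 lie below 0 without passing the adjustment.

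In U2OS KRT19 was called higher at a low level, while KRT8 and KRT18 were not called. The implied level of KRT19 was 105 normalised counts with 55 nM Aza, 51.2 with doxycycline and 25.6 in untreated cells, if the deposited mean is over these 3 groups. KRT19 was 4.11-fold higher with Aza (2.04 ± 0.29, adjusted p = 6.2e-11 in the authors' deposited table). With doxycycline it was 2.00-fold higher (1.00 ± 0.30, adjusted p = 0.011 in the authors' deposited table). KRT8 had 0.08 ± 0.06 with Aza and 0.03 ± 0.06 with doxycycline, and KRT18 0.06 ± 0.03 with Aza and 0.02 ± 0.03 with doxycycline, none of which passed. KRT10 had 0.00 ± 0.10 with Aza and 0.08 ± 0.10 with doxycycline. The upper limits of the 95% intervals with Aza were 1.15-fold for KRT8 and 1.09-fold for KRT18. KRT7, which U2OS transcribes at 480 and HEK293 hardly at all, was 1.32-fold higher with Aza (0.40 ± 0.09, adjusted p = 1.4e-04 in the authors' deposited table) and had 0.16 ± 0.09 with doxycycline, which did not pass. In all, 2 of 5 members were called with Aza, where 23.7% of all genes were (10.8% higher), and 1 of 5 with doxycycline, where 12.2% were (5.78% higher).

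The KRT19 effect of TET-CD was 0.60 ± 0.30 larger in U2OS than in HEK293 (interval 0.01 to 1.20), which did not pass after adjustment (adjusted p = 0.37), while 2.64% of all genes did. TET1 rose by 3.52 in U2OS and by 2.34 in HEK293 on the shrunken scale of the authors' deposited table. Line, experiment and degree of induction cannot be told apart here. The Aza doses of the lines differ, so their Aza effects are given side by side and not compared. Beside KRT19, 6 of 18 epithelial junction and surface markers tested in U2OS were called higher with doxycycline and 0 lower, among them CLDN6 (0.70 ± 0.17), EPCAM (0.39 ± 0.14), CDH1 (0.38 ± 0.13) and CLDN1 (0.22 ± 0.05). CLDN6 and CLDN1 encode claudins of tight junctions. Of 14 mesenchymal markers tested there, 1 was higher and 5 lower, and of all genes 12.2% were called (5.78% higher). The one that was higher is SNAI1, a transcription factor gene of the mesenchymal state (0.69 ± 0.10), while the collagen gene COL3A1 (-0.43 ± 0.04), the smooth muscle gene TAGLN (-0.21 ± 0.06) and the fibronectin gene FN1 (-0.16 ± 0.04) were lower. The median shrunken change in the authors' deposited table was 0.0084 for the first list and -0.038 for the second, against -0.0017 for all genes. Whether these genes play a part in the KRT19 change was not tested.

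Thio is a thymidine analogue that makes DNA sensitive to UVA, and none of the 5 genes was called with UVA, thio or both against untreated cells. With UVA alone KRT19 had a log2 change of -0.31 ± 0.12 (adjusted p = 0.061 in the authors' deposited table), and KRT8 had -0.18 ± 0.12, where 12.7% of all genes were called. With thio alone the 4 tested members lay between -0.12 and -0.03, and 0.0551% of all genes were called. With UVA and thio together KRT18 had 0.22 ± 0.08 (adjusted p = 0.073 in the authors' deposited table), and KRT19 0.11 ± 0.12, and 9.5% of all genes were called. Adding thio to UVA raised KRT19 (0.41 ± 0.12, adjusted p = 0.024 in the authors' deposited table, with 3.03% of all genes called and 1.43% higher). Adding UVA to thio raised KRT18 (0.26 ± 0.08, adjusted p = 0.044 in the authors' deposited table, with 3.69% of all genes called and 2.31% higher), a call lost at 0.057 when all genes with a p-value were adjusted together. These comparisons share their groups, so the KRT19 call against UVA and its low value with UVA alone rest on the same UVA libraries.

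KRT19 was next set against the other keratins within a comparison. KRT8 and KRT7 are type II, the type that pairs with KRT19, while KRT18 and KRT10 are type I like KRT19 itself. The TET-CD effect on KRT19 exceeded that on KRT8 by 0.25 (interval 0.12 to 0.38), that on KRT18 by 0.35 (interval 0.23 to 0.48) and that on KRT10 by 0.38 (interval 0.18 to 0.58). With TETmut-CD the same differences were -0.06, 0.02 and 0.09, and every interval held 0. With Aza in HEK293 KRT19 exceeded KRT18 by 0.69 (interval 0.41 to 0.97), and KRT10 by 1.12 (interval 0.83 to 1.41), but its excess over KRT8 of 0.23 had an interval of -0.10 to 0.56. In the parental MeBP line the excess over KRT8 was 0.34 (interval 0.12 to 0.55), in G37 0.21 (interval 0.0037 to 0.43) and in G16 -0.02 (interval -0.23 to 0.19). In U2OS the excess with Aza was 1.96 over KRT8, 1.98 over KRT18 and 2.04 over KRT10, and with doxycycline it was 0.97 over KRT8, 0.98 over KRT18 and 0.92 over KRT10. In U2OS the excess over KRT7 was 1.64 with Aza (interval 1.04 to 2.23) and 0.84 with doxycycline (interval 0.22 to 1.45). With doxycycline in the parental MeBP line the excess over KRT8 was 0.11 (interval -0.10 to 0.32). There it was 0.19 over KRT18 (interval 0.01 to 0.37) and 0.35 over KRT10 (interval 0.13 to 0.56). With doxycycline in G16 and G37, every interval against KRT8, KRT18 and KRT10 held 0. Over all 16 comparisons the interval lay above 0 in 5 against KRT8, in 8 against KRT18 and in 9 against KRT10, and below 0 in 1, that of UVA against KRT18 (-0.35, interval -0.63 to -0.07). Genes of one comparison share libraries, so these intervals treat the 2 estimates as independent only as an approximation, and no p-value is given.

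**Figure D4:**
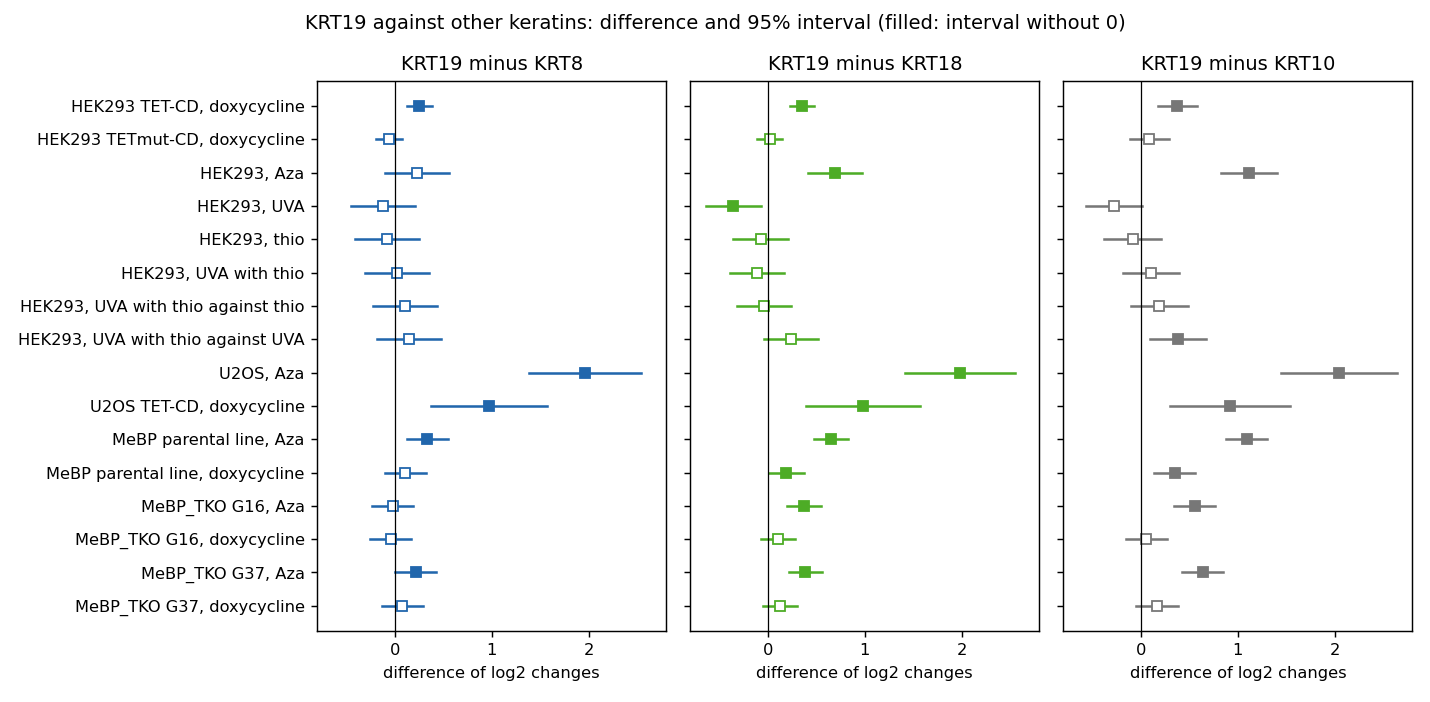
Difference between the log2 change of KRT19 and that of KRT8, KRT18 or KRT10 (x axis) in each comparison (y axis), with 95% intervals and filled squares where the interval lacks 0. KRT19 exceeds all 3 with TET-CD in HEK293 and with both agents in U2OS, and none with TETmut-CD. With doxycycline it exceeds KRT18 and KRT10 but not KRT8 in the parental MeBP line, and none in G16 or G37.

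KRT8 and KRT18, the founding type II and type I pair, differed in the size of their Aza change in 3 of the 4 HEK293 comparisons, by an interval without 0. KRT8 exceeded KRT18 by 0.46 (interval 0.17 to 0.75) in the first Aza experiment, by 0.32 (interval 0.12 to 0.51) in the parental MeBP line and by 0.40 (interval 0.20 to 0.59) in G16. In G37 the difference was 0.17, with an interval of -0.02 to 0.37. In U2OS with Aza it was 0.02 (interval -0.12 to 0.15). This pair was compared after its values had been seen.

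Antisense RNA was tabulated in 10 of the comparisons, and none of the 5 genes was called there. The authors' filter left many of these adjusted p blank, so most rows were no test for KRT19, KRT7 and KRT18. KRT19 and KRT7 had an adjusted p only with TETmut-CD and with thio, and KRT18 there and in U2OS. KRT10 had one in HEK293 only, and KRT8 in every antisense comparison. KRT8 had an antisense level of 739 and 633 normalised counts in the HEK293 construct and treatment experiments, and of 4631 in U2OS. KRT18 had 22.7, 22.4 and 222 antisense in the same 3 experiments, KRT10 had 48.3, 49.0 and 27.5, and KRT19 had 3.46, 2.91 and 0.357. KRT8 and KRT18 are neighbours on opposite strands, and their annotated spans overlap in RefSeq GRCh38. The antisense level of KRT8 was 0.225, 0.208 and 0.24 of the sense level of KRT18 in those 3 experiments. How much of it was KRT18 transcript was not tested. With Aza the shrunken antisense change of KRT8 in the authors' deposited table was 0.03 ± 0.09 in HEK293 and 0.07 ± 0.05 in U2OS. Of all genes tested in antisense, 0.303% were called with TET-CD, 0.00568% with TETmut-CD, 4.86% with Aza, 0.924% with UVA, 0% with thio and 0.842% with UVA and thio in HEK293. With thio added to UVA 2.55% were called, with UVA added to thio 0.276%, and in U2OS 6.32% with Aza and 2.17% with doxycycline. The 11 tables of nascent RNA held 0 rows for these genes.

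The genes whose pattern was most like that of KRT19 were sought among 11703 genes whose mean level reached 100 in every experiment, by Pearson's correlation of the shrunken log2 changes over the 14 comparisons of treated with untreated cells. KRT19 itself, at 60.6 in U2OS, would not reach that level. The leading 5 were ZNF615, RND2, FKBP1B, C6orf1 and CXorf38, with correlations of 0.967, 0.963, 0.959, 0.958 and 0.957. ZNF615 encodes a zinc finger protein and FKBP1B an FK506-binding protein. ZNF615 and C6orf1 were not called in any of the 14 comparisons, and CXorf38 was called only with Aza in U2OS. The changes of the leading 5 were far smaller than those of KRT19: with Aza in U2OS, where KRT19 has 1.96 on the shrunken scale of the authors' deposited table, ZNF615 has 0.12 and RND2 0.46. That single comparison holds 54.6% of the squared deviation of KRT19, and the comparisons share untreated libraries, so likeness here mostly means a high value in U2OS with Aza. The strength of the shrinkage differed between comparisons, and how far it shaped these correlations was not tested. KRT8 correlated with KRT19 at 0.42 (position 2099 of 11703), KRT18 at 0.374 and KRT10 at -0.266. By ranks in place of values KRT8 reached 0.798 and KRT18 0.701, and only RND2 remained of the leading 5.

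Genes of filaments, junctions and the mesenchymal state were followed in the same comparisons. With TET-CD in HEK293, 1 of 10 other intermediate filament genes tested was higher, the progenitor filament gene NES (0.43 ± 0.12), and 0 of 11 filament anchors, 0 of 20 epithelial junction and surface markers and 0 of 13 mesenchymal markers were called, against 0.88% of all genes (0.653% higher). The medians of the shrunken changes in the authors' deposited table were 0.0031, 0.00061, 0.0016 and 0.0013 in that order of lists, against -6.9e-05 for all genes.

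With Aza in HEK293, 3 of 12 other intermediate filament genes were higher and 0 lower, against 14.3% called among all genes. These were NES (0.90 ± 0.15), LMNA, which encodes nuclear lamins A and C (0.43 ± 0.07), and INA, a neuronal filament gene (0.22 ± 0.08). Of 13 filament anchors, 5 were higher and 1 lower. JUP, the plakoglobin of desmosomes, changed by 0.40 ± 0.08 and PLEC, the linker plectin, by 0.38 ± 0.07, while PKP4, a plakophilin-related gene, had -0.21 ± 0.07. Among 22 junction and surface markers 2 were higher, and among 15 mesenchymal markers 4 were, including the smooth muscle actin gene ACTA2 (1.31 ± 0.14) and COL1A1 (1.02 ± 0.18). The list medians were 0.016, 0.052, 0.017 and 0.015 on the shrunken scale of the authors' deposited table, against 0.0016 for all genes.

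In the parental MeBP line with Aza, 4 of 12 other filament genes were higher and 0 lower, 5 of 13 anchors higher and 1 lower, 4 of 22 junction and surface markers higher and 1 lower, and 4 of 15 mesenchymal markers higher and 1 lower. Of all genes 22.7% were called there (10.4% higher). NES (0.65 ± 0.12), LMNA (0.42 ± 0.06), JUP (0.21 ± 0.06) and PLEC (0.33 ± 0.08) were again called higher and PKP4 lower (-0.20 ± 0.06). The cornified-envelope linker gene PPL was higher by 1.23 ± 0.15 there. The list medians were 0.031, -0.0087, 0.0092 and 0.021 on the shrunken scale of the authors' deposited table, against -0.0021 for all genes. In G16 the counts were 4 higher and 0 lower of 12, 6 and 2 of 14, 6 and 1 of 22, and 5 and 2 of 15 in the same order of lists, against 23.6% of all genes called. In G37 they were 5 and 0 of 12, 5 and 0 of 14, 6 and 1 of 22, and 6 and 0 of 15, against 24.7%. In U2OS with Aza, 4 other intermediate filament genes were higher and 3 lower of 11 tested. The muscle filament genes DES (0.98 ± 0.19) and SYNM (0.92 ± 0.17) were among the higher ones. VIM fell (-0.24 ± 0.03), as did PLEC (-0.52 ± 0.08), while JUP rose (0.42 ± 0.03) and CDH1 rose (0.75 ± 0.13). Of 14 anchors 3 were higher and 4 lower, and of 21 junction and surface markers 6 were higher and 1 lower. Of 15 mesenchymal markers 1 was higher, SNAI1 (0.32 ± 0.11), and 3 were lower, TAGLN (-0.49 ± 0.06), COL3A1 (-0.42 ± 0.04) and FN1 (-0.19 ± 0.05). The medians of the lists were 0.010 for other filaments, -0.049 for anchors, 0.019 for junction and surface markers and 0.0094 for mesenchymal markers on the shrunken scale of the authors' deposited table, against 0.0018 for all genes, of which 23.7% were called.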

How the data were processed

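The labels' protocols give ribosomal RNA depletion and a stranded library kit for total RNA. Per the submitters' processing notes, STAR 2.4.2, R 3.5.1, DESeq2 1.22.1 and deepTools 3.0.2 were used on hg19, with no roles stated. The authors deposited, as signal, a mean of normalised counts per gene and experiment. They also deposited log2 fold changes with standard errors (the deposited log2 columns), and the deposited p-values are raw and adjusted, blank where filtered. The fold changes prove to be shrunken, since p is not that of the change over its error. The shrinkage was undone per table with Python 3.11.15 and scipy 1.17.1 with a Cauchy prior, its scale estimated from the p-values, and the change was taken as the z of the deposited p times the recovered standard error. For G37 with doxycycline the geometric mean of the standard errors in G16 and the parental line was used. Differences between effects with separate untreated libraries were tested by two-sided z with Benjamini-Hochberg adjustment over all genes. Intervals are 95%. The code was tested on simulated data. In each sense table, 3 repeated rows were dropped.

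The members and gene lists were chosen with earlier results of these data known. Named genes are the members, TET1, the 5 genes most like KRT19, and per list and comparison at most 4 called genes whose mean level reached 100, by size of change. Other thresholds, adjustments and centring were tried. Depth per library is unknown. DNA samples and nascent tables were not used here.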

Additional observations from a re-analysis of the deposited data

Results flagged for a closer look

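The difference between 2 effects passed the test over all genes in 3 cases. KRT19 changed more with TET-CD than with TETmut-CD in HEK293, by 0.38 on the log2 scale. KRT19 also changed more with Aza than with TET-CD in HEK293, by 0.52, and KRT8 did so by 0.54. Of all genes, 0.16% passed for TET-CD against TETmut-CD and 5.09% for Aza against TET-CD. In the former contrast the form of the construct, the degree of induction and the line cannot be told apart. In the latter contrast agent and experiment cannot be told apart. No group could be searched for outlying samples, because no value per library is given.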

How the results depend on the processing

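Of 100 alternative counts of members called or differing, 90 stayed within 1.5 times the reported count. At a threshold of 0.1 the count was 2 in place of 1 for TET-CD in HEK293, and 1 in place of 0 for UVA and for UVA with thio. At 0.01 it was 0 in place of 1 for UVA with thio against thio and for UVA with thio against UVA. The same held for doxycycline in U2OS and for doxycycline in the parental MeBP line. For Aza in HEK293 and in G37 the count at 0.01 was 2 in place of 3, as KRT18 was lost. With all genes with a p-value in the adjustment the count was 0 in place of 1 for UVA with thio against thio. For Aza in HEK293 it was then 2 in place of 3. With genes at a mean level of at least 100 only, it was 1 in place of 2 for Aza and 0 in place of 1 for doxycycline in U2OS, since KRT19 has a mean level of 60.6 there and was left out. Centring on the median gene, which lay at most 0.00999 from 0, gave 2 in place of 3 for Aza in HEK293, where KRT18 was lost, and changed no other count. No result reversed under an alternative. With the deposited shrunken values, the KRT19 excess over KRT18 with UVA (-0.24) and over KRT7 with doxycycline in U2OS (0.69) had intervals that held 0, while the excess over KRT8 with doxycycline in the parental MeBP line (0.19) had one without 0. Recovering the change from the shrunken value alone was an alternative chosen after seeing the data. It changed neither which differences of effects passed nor which intervals of KRT19 against other keratins held 0. The calls use the deposited adjusted p, so they could not change under it. At a mean level of at least 500, 2 of the 5 genes most like KRT19 remained, and by ranks 1 did. Alternatives for nascent RNA gave no value, as no member has a row. No paired analysis was possible because only comparisons between groups are tabulated, which also kept single libraries from being left out.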

Other observations

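Several keratins beyond the 5 were called as well, and those given here were singled out after their values were seen. KRT17, a type I keratin of basal and injured epithelium, was higher with Aza in HEK293 (2.59 ± 0.33 at a mean level of 29.2, adjusted p = 1.3e-12 in the authors' deposited table). With Aza it was also higher in the parental MeBP line (2.53 ± 0.30), in G16 (2.84 ± 0.28) and in G37 (2.13 ± 0.27), at a mean level of 59.1. With doxycycline KRT17 was higher in the parental MeBP line (1.66 ± 0.30) and in G37 (1.50 ± 0.30). In U2OS, where its mean level is 13559, KRT17 was higher with Aza by 0.46 ± 0.03. KRT13, a keratin of mucosal stratified epithelium, was higher with Aza in HEK293 (1.32 ± 0.39 at a mean level of 15.5) and in each MeBP line, by between 1.33 and 1.86. KRT80, a type II keratin, was lower in U2OS with Aza (-0.24 ± 0.03) and with doxycycline (-0.13 ± 0.03), at a mean level of 14459. In G16 with Aza KRT80 was called higher (2.32 ± 0.88, adjusted p = 0.037 in the authors' deposited table) at a mean level of 3.13.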
